A study of Homo sapiens with 6 samples.

Results

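Transcripts of 10 genes that mark stem-like melanoma cells or encode aldehyde dehydrogenases (ALDH) were compared between WM164 cells with an HDAC8 expression vector and WM164 cells with an empty vector (EV). The genes were found by their symbol in the deposited table, which held 60504 genes, and all 10 were present. They are the surface and filament markers PROM1, NES, CD44 and ALCAM, and the ALDH genes ALDH1A1, ALDH1A2, ALDH1A3, ALDH1B1, ALDH2 and ALDH3A2. WM164 is a human melanoma line with the BRAFV600E mutation, which both groups carry. HDAC8 is a class I histone deacetylase, and its introduction was studied for its effect on melanoma cell state. Plasmids were introduced by lipid transfection and cells were kept in hygromycin. The sources used here do not say whether each line was a clone or a pool. Each group had 3 RNA-seq libraries, numbered as biological replicates.

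PROM1 (CD133), a membrane glycoprotein of cell protrusions, has long been used to isolate tumour cells with stem-like growth, and NES (nestin) is an intermediate filament protein of neural and neural crest progenitors. CD44 is the main cell surface receptor for the matrix polymer hyaluronan, and ALCAM (CD166) is an adhesion molecule of the immunoglobulin family. ALDH enzymes oxidize aldehydes to acids, and high ALDH activity is a common assay for stem-like cells. Among them the ALDH1A enzymes make retinoic acid, a signal for differentiation, from retinaldehyde.

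Total counts per library ran from 34741083 to 42041462. Mitochondrially encoded transcripts took 9.66% to 12.8% of the counts in EV libraries and 4.46% to 7.94% in libraries labelled HDAC8, with HDAC8 replicate 1 lowest. The HDAC8 transcript itself did not check the labels. It had 422.3 ± 49.96 normalized counts in EV and 468.0 ± 20.3 in HDAC8 libraries (SD, n = 3), a log2 fold change of 0.15 with a 95% interval of -0.41 to 0.70, so a rise was not detectable and directions below are those of the labels. All 8 melanocyte lineage markers examined had reads, and 5 of them (PMEL, MLANA, TYR, DCT and S100B) were called lower in the libraries labelled HDAC8, the call of S100B being lost without any 1 library other than HDAC8 replicate 1. The summed normalized counts of the 8 were 244960 to 328761 in EV and 137043 to 182218 in HDAC8 libraries. The immune markers summed to 52.7 to 229.5 in EV and 130 to 268.3 in HDAC8 libraries, where PTPRC had 3 counts in all. CD3E had no EV count and a mean of 73.3 ± 21.0 in HDAC8 libraries (SD, n = 3). It was called higher (DESeq2 adjusted p = 1.10e-06) and kept the call with any 1 library left out. CDH5 of the 4 endothelial, DCN of the 6 fibroblast and KRT1 of the 5 keratinocyte markers had no count in any library. The summed normalized counts of the fibroblast list were 2490 to 2894 in EV and 1499 to 2424 in HDAC8 libraries, those of the endothelial list 97.5 to 202.9 and 114.3 to 218.0, and those of the keratinocyte list 155.0 to 280.0 and 165.5 to 176.2. Of the fibroblast list PDGFRA was called higher, though not without any 1 library other than HDAC8 replicate 2, while LUM, its most abundant gene, had 2462 ± 234 and 1629 ± 553 normalized counts and was not called. The part of the mitochondrial share and of these markers in the results below was not tested.

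Normalized counts are expected counts divided by the DESeq2 size factor of the library. Genes are described as called, higher or lower, where the two-sided Wald test of DESeq2 gave a Benjamini-Hochberg adjusted p under 0.05 together with a log2 fold change of 0.58 or more in either direction. The members' values by library are plotted first.

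**Figure D1:**
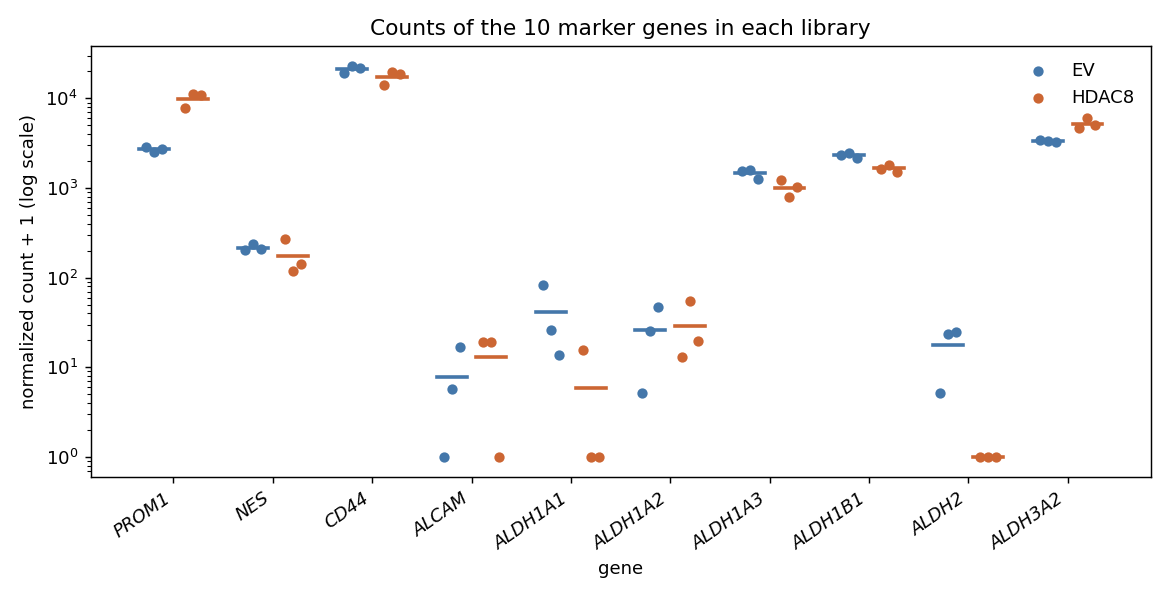
Normalized counts plus 1 (log scale) of the 10 marker genes, with 1 point per library, EV in blue and HDAC8 in orange, and a bar at each group mean. PROM1 and ALDH3A2 sit higher in all 3 HDAC8 libraries, ALDH1A3, ALDH1B1 and ALDH2 sit lower in all 3, and the remaining genes overlap.

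Of the 10 genes, 2 were called higher, PROM1 and ALDH3A2, and none was called lower, where 5.57% of the 21021 genes with an adjusted p were called higher and 5.44% lower. With edgeR's quasi-likelihood test the same counts were obtained, and at an unadjusted DESeq2 p under 0.05 another 4 genes were lower (CD44, ALDH1A3, ALDH1B1 and ALDH2), as were 11.8% of the 21021 genes. All 10 passed the filter on low counts. In 5 of the 10 all libraries of 1 group lay above all of the other, against 24.0% of the genes in the fit. The median log2 fold change was -0.30 over the 10 genes and -0.0031 over all genes with an adjusted p. In bulk RNA, fewer cells that express a gene and less of its RNA per cell cannot be told apart.

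The bases before the annotated start of the called genes are shown because the study also mapped chromatin accessibility. Its motif analysis, with AP-1 and TEAD among the motifs reported, covered accessible regions of the genome and not these starts in particular. The bases before ALDH1A3 are shown because it is the member with the most CG-rich start. All are from RefSeq on GRCh38.p14, written 5′ to 3′ on the strand of the gene, with CG dinucleotides in capitals. RefSeq starts can differ from the ends of the GENCODE gene spans given below. The stretches of PROM1 and ALDH1A3 lie within those spans, while that of ALDH3A2 ends just before its span. PROM1 lies on chromosome 4 (minus strand, chr4:16084024-16084273), ALDH3A2 on chromosome 17 (plus strand, chr17:19647886-19648135) and ALDH1A3 on chromosome 15 (plus strand, chr15:100879581-100879830).
PROM1: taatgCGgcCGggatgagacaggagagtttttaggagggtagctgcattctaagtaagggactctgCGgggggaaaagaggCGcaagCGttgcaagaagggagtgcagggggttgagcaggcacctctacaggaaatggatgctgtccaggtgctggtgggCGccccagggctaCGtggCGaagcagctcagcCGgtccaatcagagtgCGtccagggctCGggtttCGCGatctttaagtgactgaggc
ALDH3A2: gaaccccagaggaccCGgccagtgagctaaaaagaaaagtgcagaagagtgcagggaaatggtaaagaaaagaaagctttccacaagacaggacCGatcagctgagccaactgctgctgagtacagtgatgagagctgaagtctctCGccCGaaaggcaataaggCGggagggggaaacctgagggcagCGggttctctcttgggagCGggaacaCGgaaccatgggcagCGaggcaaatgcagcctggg
ALDH1A3: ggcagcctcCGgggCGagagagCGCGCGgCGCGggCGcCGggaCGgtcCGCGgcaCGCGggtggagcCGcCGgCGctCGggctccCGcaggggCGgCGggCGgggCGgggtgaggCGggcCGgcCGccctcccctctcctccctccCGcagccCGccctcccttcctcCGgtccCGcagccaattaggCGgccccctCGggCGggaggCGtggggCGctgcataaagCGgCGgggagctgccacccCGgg

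RefSeq gave a start region for 9 of the 10 genes, ALDH2 being the one without. Over 250 bases before and 50 after the start, GC content was 60.7% for PROM1 and 55.0% for ALDH3A2, near the median of 58.3% over 27305 such regions, and 81.7% for ALDH1A3, above 98.6% of them. ALDH1A1 had the lowest GC content of the members (40.3%). The letters of the AP-1 site, TGANTCA on either strand, were in none of the 9 regions and in 7.76% of all regions. The TEAD letters GGAATG and the E-box CACGTG were likewise in none of the 9, against 14.0% and 7.43% of all regions, and the MITF-type E-box CATGTG was in that of ALDH1B1 alone, against 11.2%. No motif here contains another. The GC box GGGCGG was in 6 of the 9 (44.6% of all regions), 6 times in that of ALDH1A3 and in neither called gene. These letters are a description of a single RefSeq start per gene. For PROM1, CD44, ALDH1A1, ALDH1A2 and ALDH1A3 the bases before that start lie within the GENCODE span of the gene. Motifs at other starts were not examined.

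PROM1 showed the largest rise among the members. PROM1 (ENSG00000007062, GRCh38 chromosome 4, 15963076 to 16084378, minus strand) had 2847.0, 2514.1 and 2748.5 normalized counts with the empty vector and 7787.2, 11311.7 and 10810.0 in the libraries labelled HDAC8. Every HDAC8 library was thus above every EV library, with HDAC8 replicate 1 the lowest of its group. The means were 2703 ± 171 and 9970 ± 1907 (SD, n = 3), a 3.69-fold rise with a 95% interval of 2.94 to 4.62 (a log2 change of 1.88, SE 0.17, DESeq2 adjusted p = 1.96e-27). All 15 alternatives kept the call, with log2 fold changes from 1.79 to 2.03. FGFBP2, which overlaps PROM1 on the same strand, had 59 to 354 counts per library, against 2692 to 11045 for PROM1.

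The other markers were not called. CD44 (chromosome 11, 35138882 to 35232402, plus strand) was the most abundant member, with 19439.0, 23297.0 and 21853.1 normalized counts in EV and 14143.9, 19668.8 and 18670.1 in HDAC8 libraries. HDAC8 replicate 2 overlapped with EV replicate 1, and HDAC8 replicate 1 was lowest. The fold change was 0.813, with a 95% interval of 0.662 to 0.998 (DESeq2 adjusted p = 0.203). Gene counts do not separate the CD44 splice forms.

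NES (chromosome 1, 156668763 to 156677407, minus strand) had 200.3, 234.4 and 209.8 normalized counts in EV and 265.9, 118.8 and 139.4 in HDAC8 libraries. HDAC8 replicate 1 was the highest of all 6 libraries, and the other HDAC8 libraries were the lowest, so that the SD was 17.6 in EV and 79.7 in HDAC8 (n = 3). The log2 fold change of NES was -0.30 (95% interval -1.20 to 0.60, DESeq2 adjusted p = 0.808), and -0.74 without HDAC8 replicate 1 and -0.08 without HDAC8 replicate 2.

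ALCAM (chromosome 3, 105366909 to 105576900, plus strand) had few reads, with 0, 5 and 16 counts in EV and 21, 18 and 0 in HDAC8 libraries. A library without a count allows up to 3 counts, counting error only, or 2.57 to 3.27 normalized counts depending on the library. The 95% interval of the log2 fold change ran from -3.44 to 5.10, so a difference in either direction was not detectable at this depth.

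**Figure D2:**
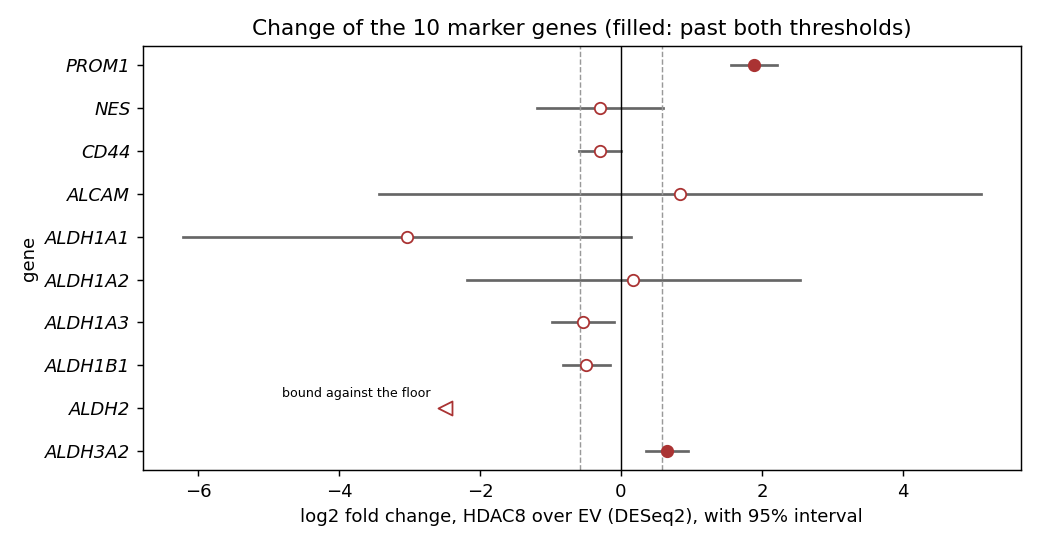
DESeq2 log2 fold changes (HDAC8 over EV) of the 10 marker genes with 95% intervals, dashed lines at the fold change minimum of 0.58 in either direction, and filled points for called genes. ALDH2, with no count in HDAC8 libraries, is drawn as a triangle at -2.50. That is its EV mean against a floor of 3 counts, without the spread of the EV counts. Of the intervals drawn, those of ALCAM, ALDH1A1 and ALDH1A2 are the widest.

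Among the retinaldehyde dehydrogenases, ALDH1A3 was the one with substantial reads. ALDH1A3 (chromosome 15, 100877714 to 100916626, plus strand) had 1565.5, 1596.3 and 1256.2 normalized counts in EV and 1213.7, 797.4 and 1020.6 in HDAC8 libraries. The groups did not overlap, but EV replicate 3 and HDAC8 replicate 1 were close to each other. The means were 1473 ± 188 and 1011 ± 208 (SD, n = 3), a log2 fold change of -0.54 (95% interval -0.98 to -0.10) with a DESeq2 adjusted p = 0.0954, short of both thresholds. Without HDAC8 replicate 1 the gene was called (a log2 change of -0.70, DESeq2 adjusted p = 0.0111), and over all 15 alternatives the adjusted p ran from 0.0111 to 1. It was the only member with fractional counts, in all 6 libraries, and it overlaps the antisense transcript ALDH1A3-AS1 (128.8 to 317.6 counts), so its reads are less certain than those of the other members.

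ALDH1A1 and ALDH1A2 had few reads. ALDH1A1 (chromosome 9, 72900671 to 73080442, minus strand) had 79, 27 and 13 counts in EV and 17, 0 and 0 in HDAC8 libraries. HDAC8 replicate 1, at 14.5 normalized counts, lay above EV replicate 3, at 12.8, and the groups therefore overlapped. The DESeq2 adjusted p was 0.241 (95% interval of the log2 fold change -6.21 to 0.14). Without HDAC8 replicate 1, whose reads are the only ones of its group, the EV mean was 12.7-fold above a floor of 3 counts. That ratio leaves out the spread of the EV counts. The DESeq2 adjusted p of ALDH1A1 was then 0.00189, and across its 14 alternatives it ran from 0.00189 to 1. The upper end came from the test against the fold change minimum, and the DESeq2 adjusted p without EV replicate 1 was 0.809. Without EV replicate 1, which holds most of the EV reads, the log2 fold change was -1.96, against -3.04 with all libraries. ALDH1A2 (chromosome 15, 57953424 to 58497866, minus strand) had 4, 26 and 47 counts in EV and 14, 53 and 17 in HDAC8 libraries, which overlapped almost fully (a log2 change of 0.18, 95% interval -2.19 to 2.54, DESeq2 adjusted p = 0.97). Its direction turned without HDAC8 replicate 2 (-0.71) or EV replicate 1 (-0.32).

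ALDH1B1 and ALDH2 encode mitochondrial enzymes that can clear acetaldehyde and related aldehydes. ALDH1B1 (chromosome 9, 38392702 to 38398661, plus strand) had 2321.6, 2488.0 and 2146.6 normalized counts in EV and 1629.8, 1802.5 and 1523.4 in HDAC8 libraries, with no overlap. The log2 fold change was -0.49 (SE 0.17, 95% interval -0.83 to -0.15). Its DESeq2 adjusted p = 0.0376 was under the p threshold, as for 13.0% of all genes with an adjusted p, and the change was under the fold change minimum. The adjusted p of ALDH1B1 was 0.074 with edgeR and 0.0973 with limma-voom, and ran from 0.0235 to 1 over 15 alternatives.

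ALDH2 (chromosome 12, 111766887 to 111817532, plus strand) had 4, 24 and 24 counts in EV and no count in any HDAC8 library. Its EV mean was 5.64-fold above a floor of 3 counts per library, a ratio that leaves out the spread of the EV counts. The DESeq2 adjusted p of ALDH2 was 0.0534, just above the threshold, so the gene was not called. Over its 11 alternatives the adjusted p ran from 0.0444 (no filter on low counts) to 0.31. The EV reads themselves were few, 52 in all, and no adjusted p was given for ALDH2 without EV replicate 2 or EV replicate 3.

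ALDH3A2, the fatty aldehyde dehydrogenase of the endoplasmic reticulum, whose loss causes Sjögren-Larsson syndrome, was the ALDH member that rose. ALDH3A2 (chromosome 17, 19648136 to 19685760, plus strand) had 3415.3, 3307.1 and 3276.5 normalized counts in EV and 4661.9, 6029.2 and 5003.7 in HDAC8 libraries. The EV libraries lay close together (SD 72.9, n = 3) and all were below the lowest HDAC8 library. The rise was 1.57-fold with a 95% interval of 1.27 to 1.93 (a log2 change of 0.65, SE 0.15, DESeq2 adjusted p = 4.49e-04). Its size was near the fold change minimum. Without HDAC8 replicate 2, the highest library, the log2 fold change was 0.54 (DESeq2 adjusted p = 0.00868) and the call was lost, and over 15 alternatives the adjusted p ran from 1.45e-06 to 1.

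To compare levels between genes, TPM values (reads per transcript length, scaled to the same total in each library) were computed from the expected counts over the union of annotated exons. In EV libraries CD44 was highest at 176 ± 6.11 TPM, followed by ALDH1B1 at 61.2 ± 7.28 and PROM1 at 29.9 ± 4.40 (SD, n = 3). ALDH1A3 (22.8 ± 4.26) overlapped with PROM1 above it and with ALDH3A2 (17.9 ± 2.08) below it. NES stood at 3.16 ± 0.206 TPM, and ALDH1A1, ALDH1A2, ALDH2 and ALCAM had means of 1.23 TPM or less, each overlapping with the next. In HDAC8 libraries PROM1, at 131 ± 22.6 TPM, overlapped with CD44 at 171 ± 25.5. In mean TPM, 3903 genes were above PROM1 in EV and 861 in HDAC8 libraries. ALDH3A2 stood below ALDH1A3 in EV and above it in HDAC8 libraries (33.4 ± 3.48 against 18.7 ± 4.34). With the longest transcript as length, ALDH3A2 (44.5 ± 4.69 TPM) stood above PROM1 (42.2 ± 5.83) and ALDH1A3 (28.8 ± 5.09) in EV libraries already, so the place of ALDH3A2 in the order depends on the length used.

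The 19 ALDH genes together took 390 to 454 TPM in EV libraries and 550 to 568 in HDAC8 libraries, a log2 ratio of means of 0.42. TPM also moves with the mitochondrial share given above. On normalized counts per kilobase, a scale added after the data were seen, the log2 ratio was 0.17. Shares within the family do not depend on that scale, but they do on the length used. The 6 ALDH members made up 24.7% ± 1.61 of the family's summed TPM in EV and 18.7% ± 0.912 in HDAC8 libraries (SD, n = 3). With the longest transcript as length, chosen after seeing the data, the 6 members made up 28.01% ± 1.68 and 24.8% ± 1.31, and the groups overlapped. With union exon length ALDH1B1 was at 14.6% ± 0.805 and 9.28% ± 0.705 and ALDH1A3 was at 5.43% ± 0.650 and 3.33% ± 0.740, while ALDH3A2 was at 4.28% ± 0.187 and 5.97% ± 0.714. ALDH1A3 held 90.8% to 96.2% of the ALDH1A TPM in EV and 95.7% to 98.8% in HDAC8 libraries. ALDH18A1, which is no marker gene, held 27.8% ± 0.460 in EV and 41.6% ± 0.709 in HDAC8 libraries. With the longest transcript ALDH3A2 was at 9.81% ± 0.394 and 13.6% ± 1.59, ALDH1B1 at 11.4% ± 0.679 and 7.20% ± 0.518, ALDH1A3 at 6.35% ± 0.777 and 3.86% ± 0.861, and ALDH18A1 at 23.7% ± 0.436 and 35.2% ± 0.544, each in the same direction as with union exon length. These shares are a description, with no test.

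**Figure D3:**
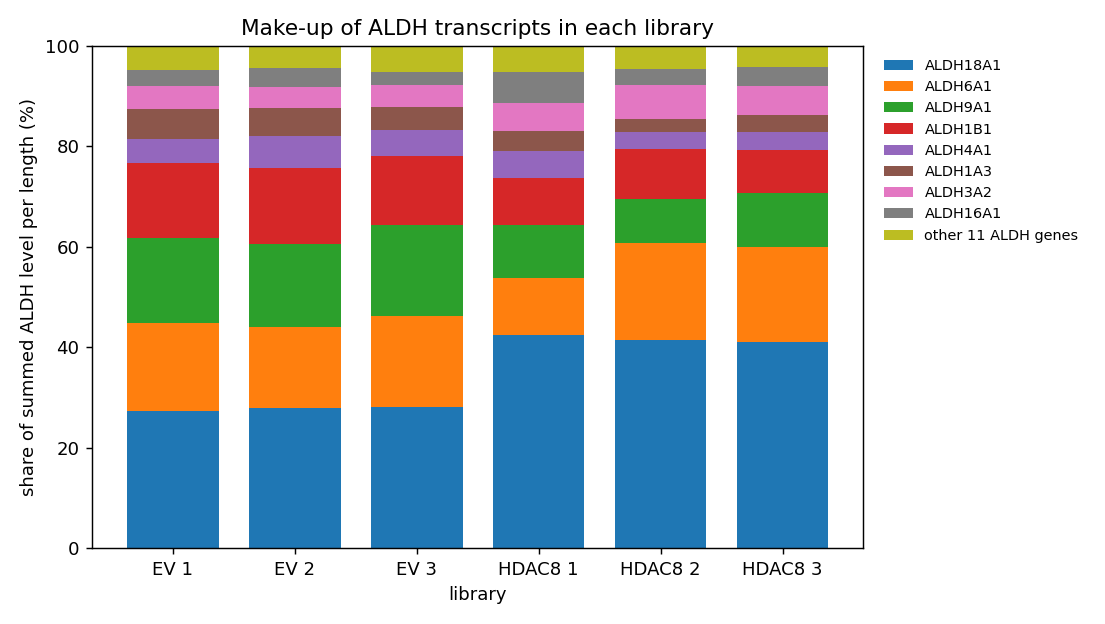
Share of each ALDH gene in the summed TPM (union exon length) of the 19 ALDH genes, in percent, with 1 stacked bar per library. The ALDH18A1 block covers 27.3% to 28.2% of the EV bars and 41.0% to 42.4% of the HDAC8 bars, and the ALDH1B1 block is smaller in all 3 HDAC8 bars.

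Of the other 13 ALDH genes, 12 had an adjusted p, of which 1 was called higher and 1 lower (median log2 fold change 0.18). The counts in this and the following lists stand beside the 5.57% of all genes called higher and 5.44% called lower. ALDH18A1, which makes the proline precursor pyrroline-5-carboxylate, rose from 5318 ± 213 to 8928 ± 113 normalized counts (SD over 3 libraries, a log2 change of 0.75, DESeq2 adjusted p = 1.64e-07). ALDH9A1, an enzyme of carnitine synthesis, fell from 2619 ± 114 to 1719 ± 158 (a log2 change of -0.61, DESeq2 adjusted p = 0.0039). The call of ALDH9A1 was lost without HDAC8 replicate 2 (a log2 change of -0.53) and without EV replicate 3 (-0.58). ALDH6A1, of valine breakdown, was abundant and had 4298.2, 7492.9 and 7238.0 normalized counts in HDAC8 libraries against 5653.5 to 6050.4 in EV, a log2 fold change of 0.12 (DESeq2 adjusted p = 0.821). None of 7 other aldehyde-handling enzymes with an adjusted p (alcohol dehydrogenases, aldo-keto and carbonyl reductases and GSTA4) was called by DESeq2 or edgeR, and none had an unadjusted DESeq2 p under 0.05. The most abundant of them were AKR1A1 (a log2 change of 0.17, DESeq2 adjusted p = 0.694) and ADH5 (-0.16, 0.713).

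Since ALDH1A enzymes supply retinoic acid, genes before and after that step were examined. Of 9 genes of retinoid supply with an adjusted p, 2 were called higher and 0 lower (median log2 fold change -0.12). RDH10, which oxidizes retinol to retinaldehyde, rose from 656 ± 169 to 1486 ± 241 normalized counts (SD over 3 libraries, a log2 change of 1.18, DESeq2 adjusted p = 6.68e-05). DHRS3, which reduces retinaldehyde back to retinol, rose from 540 ± 178 to 1101 ± 267 (a log2 change of 1.03, DESeq2 adjusted p = 0.00639). The DHRS3 call was lost without EV replicate 1 (DESeq2 adjusted p = 0.0818) and without EV replicate 3 (0.0504), in a range of 8.93e-04 to 1 over its alternatives. RDH11 (-0.12) and RETSAT (-0.39) were the most abundant of the list and were not called (DESeq2 adjusted p = 0.782 and 0.169).

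Of 8 retinoic acid binding proteins and receptors, 1 was called higher and 1 lower (median 0.18). FABP5, which carries fatty acids and can carry retinoic acid, had 196.1, 191.2 and 286.6 normalized counts in EV and 1798.3, 1691.5 and 1781.1 in HDAC8 libraries (a log2 change of 2.97, SE 0.24, DESeq2 adjusted p = 2.18e-33). Its expected counts were fractional in 5 of the 6 libraries, so its reads are less certain too. RXRG, a retinoid X receptor, fell from 2008 ± 217 to 1255 ± 93.0 (SD, n = 3, a log2 change of -0.68, DESeq2 adjusted p = 0.00352), and its call was lost without EV replicate 2 (-0.60, DESeq2 adjusted p = 0.053, in a range of 0.00152 to 1). RARA had a log2 fold change of -0.04 (DESeq2 adjusted p = 0.969), of either sign over its alternatives.

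Among clearance and target genes of retinoic acid, CYP26B1 and TGM2 had the largest rises of the pathway. Of 4 with an adjusted p, 2 were called higher and 0 lower. The others, CYP26C1 (0.35) and RARRES1 (0.24), had few reads and were not called (DESeq2 adjusted p = 0.945 and 0.969). CYP26A1 and RARRES3 had too few reads for the fit. CYP26B1, which degrades retinoic acid, had 40.9, 67.2 and 35.5 normalized counts in EV and 738.8, 1023.1 and 725.2 in HDAC8 libraries (a log2 change of 4.11, SE 0.35, DESeq2 adjusted p = 5.95e-29). TGM2, a transglutaminase that retinoic acid induces in many cells, had 8.4, 81.3 and 90.6 in EV and 868.8, 752.7 and 902.7 in HDAC8 libraries (a log2 change of 3.81, SE 0.85, DESeq2 adjusted p = 1.86e-04). In both genes every HDAC8 library was far above every EV library.

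CD44 itself was not called, and 0 of its 16 ligands and partners with an adjusted p were called higher and 3 lower (median -0.26). VCAN (versican), a proteoglycan that binds hyaluronan, fell from 11193 ± 537 to 85.9 ± 37.5 normalized counts (SD over 3 libraries, a log2 change of -7.03, DESeq2 adjusted p = 4.11e-225). SPP1 (osteopontin), a secreted ligand of CD44, fell from 1389 ± 223 to 182 ± 38.0 (a log2 change of -2.94, DESeq2 adjusted p = 1.00e-26). CEMIP, which takes part in hyaluronan breakdown, fell from 3714 ± 721 to 938 ± 280 (a log2 change of -1.98, DESeq2 adjusted p = 1.17e-15). Its relative CEMIP2 had a log2 fold change of 0.01, and MSN (moesin), which links CD44 to actin, of 0.22 (DESeq2 adjusted p = 0.98 and 0.342). EZR (0.50) and NF2 (0.49) rose with a DESeq2 adjusted p of 0.0206 and 0.0099 and no overlap, but under the fold change minimum. Without HDAC8 replicate 1, 1 gene of this list was called higher and 4 lower.

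Of 4 adhesion molecules related to ALCAM with an adjusted p, 0 were called higher and 2 lower (median -0.68). The adhesion molecules NCAM1 and BCAM fell by 1.76 and 1.15 on the log2 scale (DESeq2 adjusted p = 1.92e-23 and 5.05e-05). MCAM (0.33) and L1CAM (-0.21), the most abundant of the list, were not called (DESeq2 adjusted p = 0.167 and 0.53). The reads of PROM2, the paralogue of PROM1, were too few for the fit.

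Beside NES, 10 other intermediate filament genes had an adjusted p, of which 3 were called higher and 0 lower (median 0.56). VIM (vimentin), with which nestin assembles, rose from 111149 ± 7896 to 172026 ± 2727 normalized counts (SD over 3 libraries, a log2 change of 0.63, DESeq2 adjusted p = 1.67e-06). NEFL, a neurofilament, rose from 26.6 ± 22.2 to 142.6 ± 33.1 (a log2 change of 2.42, DESeq2 adjusted p = 0.0321), and its call was lost in 5 of the 6 fits that left out a library, with adjusted p from 0.0538 to 0.19 there and EV replicate 1 the exception. The adjusted p of NEFL ran from 0.0177 to 0.477 over 14 alternatives. LMNB2, named as the remaining call after its values were seen, had a log2 fold change of 0.59 (DESeq2 adjusted p = 0.0251) with groups that overlapped, and its call was lost without EV replicate 1, EV replicate 3, HDAC8 replicate 1 or HDAC8 replicate 3. LMNA had 22145.7 normalized counts in HDAC8 replicate 1 and 9881.0 to 12798.5 in the other 5 libraries, and was not called (0.54, DESeq2 adjusted p = 0.0577). Without HDAC8 replicate 1 its log2 fold change was 0.20. It was called without EV replicate 2 (0.65), HDAC8 replicate 2 (0.71) or HDAC8 replicate 3 (0.67), with adjusted p from 0.00902 to 1 over its alternatives. Without EV replicate 3 or without HDAC8 replicate 1, 1 gene of this list was called.

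Of 11 other stem-like markers with an adjusted p, 2 were called higher and 1 lower (median -0.25). NGFR (CD271), a neurotrophin receptor of neural crest stem cells, rose from 179 ± 25.7 to 1059 ± 160 normalized counts (SD over 3 libraries, a log2 change of 2.56, DESeq2 adjusted p = 2.97e-19). SOX2, a pluripotency factor named after its values were seen, was the other call, with no EV count and 6.0, 80.9 and 16.3 normalized counts in HDAC8 libraries. The HDAC8 mean of SOX2 was 11.6-fold above a floor of 3 counts per library, a ratio that leaves out the spread of its counts. HDAC8 replicate 2 held 79 of its 101 reads, and without that library DESeq2 gave SOX2 no adjusted p (unadjusted p = 0.0896), so the call was lost. MSI1, an RNA-binding protein of neural progenitors, fell from 260 ± 29.0 to 61.2 ± 17.8 (a log2 change of -2.09, DESeq2 adjusted p = 1.89e-04). Its relative MSI2 had a log2 fold change of -0.55 (DESeq2 adjusted p = 0.00183), under the fold change minimum, and passed it without EV replicate 2 (-0.60) or HDAC8 replicate 2 (-0.62). MYC was at -0.01 (DESeq2 adjusted p = 0.987), of either sign over its alternatives.

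**Figure D4:**
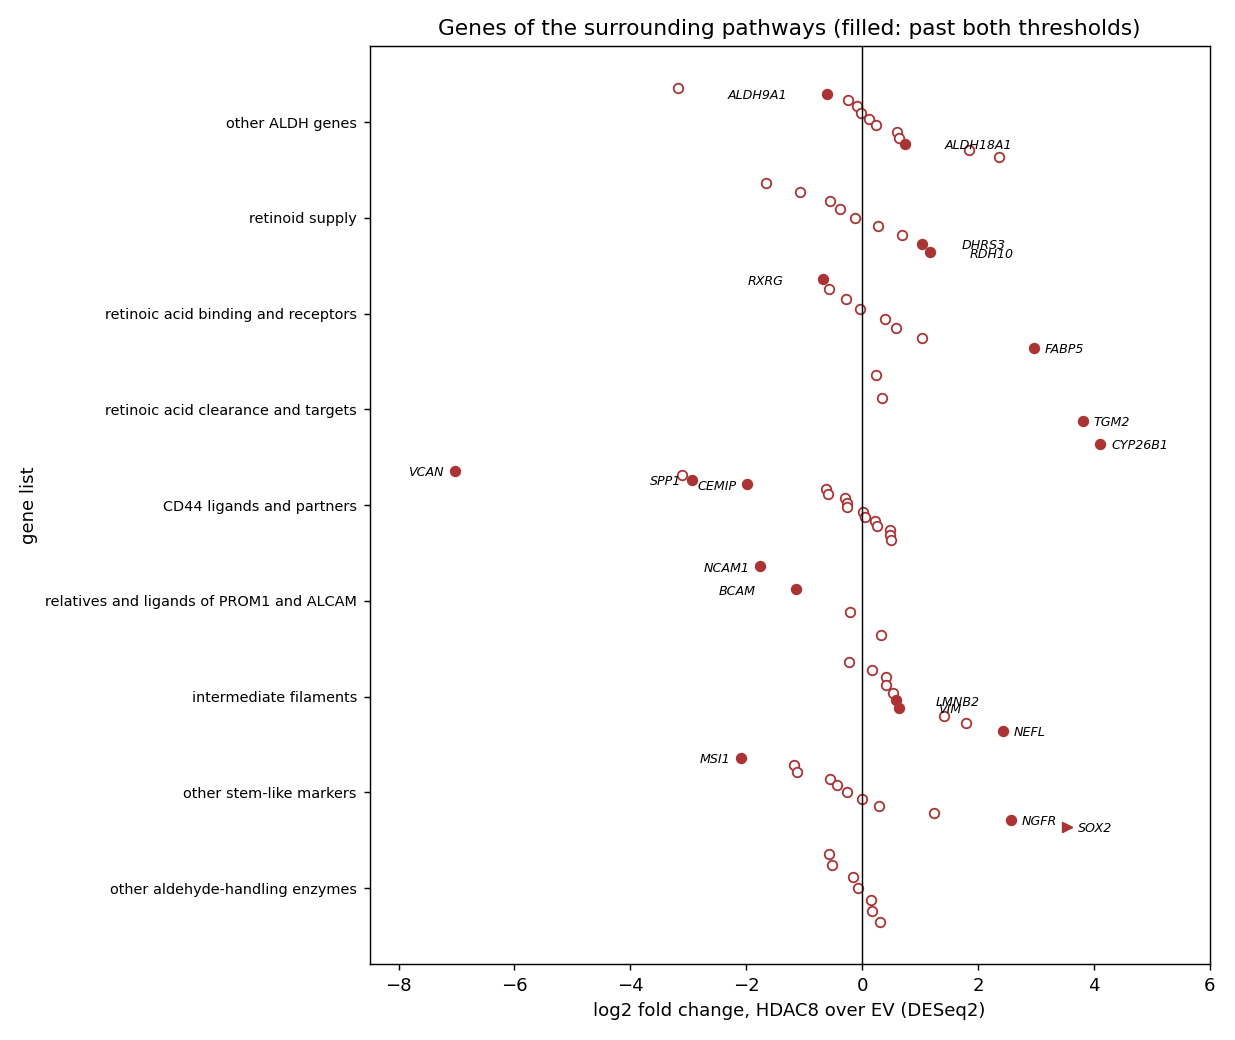
DESeq2 log2 fold changes (HDAC8 over EV) of the genes with an adjusted p in each of 9 lists around the markers. Filled points are called genes, and triangles are group means against a floor of 3 counts, without the spread of the counts. VCAN lies farthest to the left at -7.03 and CYP26B1 farthest to the right at 4.11.

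Genes with the pattern most like that of each called member were sought by Pearson correlation of log2(normalized count + 1) over the 6 libraries, among 14449 genes with a mean of at least 50 normalized counts. This is a description in which the group difference weighs most. For PROM1 they were SLC38A1 (r = 0.999952), a glutamine transporter with a log2 fold change of 2.40, and AC104958.2 (r = 0.999, a log2 change of 2.15), and 49 genes reached an r of 0.99. SLC38A1 had 7069.8 normalized counts in HDAC8 replicate 1 and 11284.1 and 10470.3 in HDAC8 replicates 2 and 3, so that it was lowest in the same HDAC8 library as PROM1. For ALDH3A2 they were DGKE (r = 0.995) and ATP6AP2 (r = 0.993), with log2 fold changes of 0.63 and 0.41, and 3 genes reached 0.99.

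The nearest tested protein-coding genes on either side of the members were 20 genes, of which 18 had an adjusted p, 2 were called higher and 2 lower, where 11.0% of all genes were called. ANXA1, 71423 bases from ALDH1A1, rose from 745.7 to 4856 mean normalized counts (a log2 change of 2.7, DESeq2 adjusted p = 7.96e-55). LRRK1, 2701 bases from ALDH1A3, rose (a log2 change of 0.82, DESeq2 adjusted p = 0.00935), though not without EV replicate 1 (0.0839) or HDAC8 replicate 3 (0.0718), with adjusted p from 0.00117 to 1 over its alternatives. BCAN, 9231 bases from NES, and NFKBIZ, the nearest on 1 side of ALCAM at 3505887 bases, fell by 1.29 and 1.14 on the log2 scale (DESeq2 adjusted p = 5.99e-10 and 2.84e-09). Beside the called members, TAPT1 near PROM1 had a log2 fold change of 0.44 (DESeq2 adjusted p = 0.219) and was called without HDAC8 replicate 1 (0.64, DESeq2 adjusted p = 0.00486, in a range of 0.00486 to 1). The neighbours of ALDH3A2, SLC47A1 and ALDH3A1, were not called, and ALDH3A1 had counts in EV replicate 2 alone (28).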

How the data were processed

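RNA-seq was performed on 3 EV and 3 HDAC8 libraries of WM164 cells, grouped and numbered by the labels. Reads were paired-end, and the authors used Trimmomatic for trimming, STAR for transcriptome alignment and RSEM for quantification. The deposited unit is the expected count per gene, without scaling between libraries. Reads that fit several genes are shared between them. The genome build, the annotation release and whether strand was used in counting are not given in the sources used here, so overlapping and antisense genes are uncertain. The labels and the methods name different RNA extraction kits.

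Expected counts were rounded to whole numbers, and 26162 genes with a total of at least 10 were fitted with DESeq2 1.42.0 in R 4.3.3 (two-sided Wald test, size factors 0.918 to 1.17, no covariates, thresholds from the methods of the study). DESeq2 gave no adjusted p for 5141 genes, which were left out of shares of calls. Intervals are at the 95% level. Positions and lengths of genes were those of GENCODE release 44, in which 56558 of 60504 identifiers were found. Start regions were those of RefSeq. A floor of 3 counts per library was used for groups without reads. Unless the labels mean separate cultures by biological replicates, p-values measure only the spread between these samples, which may be technical. Separate transfections for the libraries of a group are not described. Without them p-values do not measure the spread between transfected lines. The vector and other differences between the EV and HDAC8 lines then cannot be told apart. No pair within a group was alike within counting error (chi-square per degree of freedom 26.0 to 153, with HDAC8 replicate 1 farthest from its group).

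The members and the gene lists were chosen with earlier results of these data known. Named genes are HDAC8, the members, in each list at most 4 called genes without overlap between groups and with 50 or more normalized counts on average, and the 2 most abundant genes, the 2 genes most like each called member, and the nearest tested protein-coding genes. Cell type markers and genes outside this rule were named after their values were seen. Alternatives were edgeR 4.0.16 (quasi-likelihood, TMM), limma-voom 3.58.1, other size factors, other filters, a replicate block, a test against the fold change minimum and each library left out. A fit without mitochondrially encoded genes, the scale per kilobase and shares over the longest transcript were chosen after seeing the data. The fits were tested on simulated data for HDAC8 against EV (23687 genes). Of these, 200 were changed, all with a mean of at least 50 normalized counts. Recovery below that mean, where ALCAM, ALDH1A1, ALDH1A2 and ALDH2 lie, was not measured. In the simulated data DESeq2 recovered 49% of the 2-fold and 84% of the 4-fold changes, with 0 wrong signs. It also called 45 unchanged genes, 16 of them with a mean of at least 50 normalized counts. Single calls in the simulated data were therefore less certain than the threshold of 0.05 states. The fit of the real data called 2313 genes, so the simulated share of false calls does not carry over to it.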

Additional observations from a re-analysis of the deposited data

How the results depend on the processing

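Over 142 alternatives of the 10 members, in 134 neither sign nor call moved, in 2 a call was lost, in 4 a call was gained and in 2 the sign turned. When DESeq2 tested against the minimum of 0.58, 292 genes were called higher and 291 lower, 1 member (PROM1) was called, and ALDH3A2 lost its call (0.65). In the lists that test left 0 calls among other ALDH genes, retinoid supply and intermediate filaments. It left 1 each among retinoic acid binding proteins and receptors and among relatives of ALCAM. That test needs the whole error margin to lie past 0.58. With no filter on low counts 1 member was called lower, ALDH2, whose fitted -6.53 is no measured fold since the HDAC8 group had no count. Total-count size factors left 1 call among other ALDH genes. With at least 10 counts in every library 4 genes of retinoid supply and 1 of clearance and targets were called, while ALCAM, ALDH1A1, ALDH1A2 and ALDH2 were removed. Replicate numbers did not pair the libraries (correlations of deviations -0.0274, -0.0666 and 0.0399). With the replicate block 1 member was called lower, ALDH1A1 (-4.97, DESeq2 adjusted p = 0.0413, in a range of 0.00189 to 1). The summed ALDH level moved from 0.42 to 0.23 without length correction and to 0.17 per kilobase of normalized counts. Apart from the test against the minimum, the cause was not tested.

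With single libraries left out in turn, the number of genes called lower ran from 746 (without EV replicate 3) to 1378. Members called higher numbered 1 (without HDAC8 replicate 2) to 2, and members called lower 0 to 2 (ALDH1A1 and ALDH1A3, without HDAC8 replicate 1). Calls ran from 1 to 2 among other ALDH genes and among binding proteins and receptors, from 1 to 3 in retinoid supply and in intermediate filaments, and from 3 to 5 among CD44 ligands and partners. Log2 fold changes of ALDH1A1 ran from -7.70 to -1.96. The -7.70 is a fitted value against libraries without a count, where the EV mean against the floor gives -3.67. The ranges were -0.71 to 0.98 for ALDH1A2, -0.70 to -0.39 for ALDH1A3 and 0.54 to 0.73 for ALDH3A2. Signs turned for ALDH6A1 (-0.014 to 0.33), RDH11 (-0.23 to 0.014), RARA (-0.24 to 0.13), CEMIP2 (-0.062 to 0.090), L1CAM (-0.32 to 0.0074) and MYC (-0.075 to 0.11), and with total-count size factors for RARA (0.0016) and MYC (0.031). Depth limited ALCAM, ALDH1A1, ALDH1A2 and ALDH2, with 52 to 161 counts over all libraries.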
